A study of Mus musculus with 15 samples.

Results

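The genes described here, 10 in number, were chosen by name for their place in transforming growth factor beta (TGF-beta) and activin signalling, and all were found among the 22180 genes of the table through 1 probe set each. They were the ligands Tgfb1, Tgfb2 and Tgfb3, the receptors Tgfbr1 and Tgfbr2, the activin subunits Inhba and Inhbb, the latent TGF-beta binding proteins Ltbp1 and Ltbp2, and Tgfbi, which encodes a matrix protein first described as induced by TGF-beta. Expression was measured on 15 arrays from the common carotid artery of female C57Bl/6J mice aged 21-22 weeks, each hybridised with cDNA made from 100 ng of total RNA. Wildtype mice gave 4 non-ligated and 4 ligated arteries, and Has3-deficient mice gave 4 non-ligated and 3 ligated arteries. In the ligated groups the left common carotid was tied off to induce a neointima, and arteries of all groups were taken 5 days after surgery. Has3 encodes a hyaluronan synthase, and the labels do not say how the gene was inactivated or whether a non-ligated artery came from the same mouse as a ligated one. The labels also do not say whether the arrays of a group came from separate mice, so the p-values reflect only how these samples scatter, which may be technical.

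TGF-beta is secreted in a latent form, folded with its own propeptide and tethered to the matrix by latent TGF-beta binding proteins. Proteases, thrombospondin and integrins release the active ligand, which brings the receptors Tgfbr2 and Tgfbr1 together, and the activated receptor phosphorylates Smad proteins that enter the nucleus. Activins are dimers of inhibin beta subunits and signal through related receptors to the same Smads. In the artery wall the pathway is known for driving matrix synthesis and contractile gene expression in smooth muscle cells, and it acts on macrophages and endothelium as well.

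The values were log2 expression values that had been centred on each probe set's median over the 15 arrays, so a value of 0 is the middle of the series and a level cannot be compared between genes. Each difference is given on the log2 scale with its standard error (SE), and its p-value came from limma, adjusted by Benjamini-Hochberg over all 22180 genes, with an adjusted p under 0.05 called as passing.

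The Has3 probe set did not differ detectably between genotypes. Has3-deficient minus wildtype was 0.09 ± 0.14 (SE) in non-ligated and -0.20 ± 0.16 (SE) in ligated arteries. The labels do not name which exons were removed, so this value does not check the genotype. The defining markers of smooth muscle, Acta2, Myh11 and Tagln, carried the coarse number steps of values that lay in the upper part of the range before centring. So did 10 of the 12 probe sets of the contractile smooth muscle list, beside 17.3% of all probe sets with 1 symbol. The steps were not particular to that list. They were carried by 8 of 9 adventitial fibroblast, 6 of 10 endothelial and 5 of 13 macrophage probe sets, and by 0 of 10 neutrophil and 0 of 10 neuron probe sets. A mean above 1 of the fat or the neuron marker list set apart 5 non-ligated arrays, namely wildtype replicates 1 and 2 and Has3-deficient replicates 1, 3 and 4, with the highest neuron mean of 4.5 in Has3-deficient replicate 3. That array was also the lowest of its group for 9 of the 10 genes, and results were recomputed without these 5 arrays. This left 1 non-ligated Has3-deficient array, replicate 2, the highest of its group for 6 of the 10 genes. Has3-deficient values of that fit are therefore given as effect sizes only.

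The promoters of the genes with the largest rises, Tgfb1 and Tgfbi, and of the relatives Ltbp2 and Ltbp1, which moved in opposite directions, are shown first. Each is the 250 bases before the annotated start, 5′ to 3′ on the gene's own strand, from RefSeq on GRCm38.p6. Capitals mark GC boxes (GGGCGG, or CCGCCC where it is read from the other strand) and, in Ltbp1, a cyclic AMP response element (TGACGTCA).
Tgfb1: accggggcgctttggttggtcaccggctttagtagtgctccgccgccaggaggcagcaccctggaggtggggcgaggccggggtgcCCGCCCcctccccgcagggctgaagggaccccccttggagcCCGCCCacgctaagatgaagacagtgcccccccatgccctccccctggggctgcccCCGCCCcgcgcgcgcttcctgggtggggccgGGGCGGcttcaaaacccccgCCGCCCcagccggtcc
Tgfbi: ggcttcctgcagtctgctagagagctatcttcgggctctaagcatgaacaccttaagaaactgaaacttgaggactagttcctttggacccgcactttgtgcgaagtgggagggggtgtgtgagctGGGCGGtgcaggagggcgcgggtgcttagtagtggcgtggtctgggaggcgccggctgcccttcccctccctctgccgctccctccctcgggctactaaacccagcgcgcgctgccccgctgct
Ltbp2: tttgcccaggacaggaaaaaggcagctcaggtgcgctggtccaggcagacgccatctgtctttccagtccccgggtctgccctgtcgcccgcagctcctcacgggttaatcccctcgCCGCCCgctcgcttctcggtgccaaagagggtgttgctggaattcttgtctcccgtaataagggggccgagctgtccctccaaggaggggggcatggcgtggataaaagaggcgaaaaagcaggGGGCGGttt
Ltbp1: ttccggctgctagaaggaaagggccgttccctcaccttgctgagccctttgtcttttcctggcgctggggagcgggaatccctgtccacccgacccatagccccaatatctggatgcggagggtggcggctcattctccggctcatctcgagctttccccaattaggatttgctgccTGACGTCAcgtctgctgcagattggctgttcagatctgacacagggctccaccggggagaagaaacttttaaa
The Tgfb1 window lies at chr7:25686752-25687001 on the plus strand and had a GC content of 75.2%, against a median of 52.4% over all 32851 windows of the table. It held 5 GC boxes, the nearest ending 11 bases before the start. The Tgfbi window, at chr13:56609336-56609585 on the plus strand, held 1 GC box at a GC content of 62.4%. The Ltbp2 window, at chr12:84876492-84876741 on the minus strand, held 2 GC boxes, 1 of them from 9 to 4 bases before the start. Ltbp1 has a pair of annotated starts, and the window shown, at chr17:75005279-75005528 on the plus strand, held no GC box but a cyclic AMP response element from 73 to 66 bases before the start.

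These matches were read against how common the letters are. With both strands searched, GGGCGG stood in 32.7% of all windows and TGACGTCA in 1.55%. Of the 10 genes 9 had a window, and Tgfb3 had none. None of the member windows held an AP-1 site (TGANTCA, 6.75% of all windows), the palindromic Smad element (GTCTAGAC, 0.167%), a kappaB site (3.9%) or a CArG box (1.47%). The shorter Smad-binding sequence CAGACA, present in 17.1% of windows, was found in the windows of Tgfb2, of the later start of Tgfbr1 and of the later start of Ltbp1. TATAAA, present in 12.4%, was found in the window of Tgfb2, from 31 to 26 bases before the start, and in that of Inhba. A match is a description of letters and not a bound site, and no match says only that these letters are absent from this window.

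Ligation was compared first, separately in each genotype. In wildtype arteries Tgfb1, Inhbb, Ltbp2 and Tgfbi rose, Tgfb3 and Ltbp1 fell, and Tgfb2, Tgfbr1, Tgfbr2 and Inhba did not pass. The same 4 genes rose and the same 2 fell in Has3-deficient arteries. The count of 6 of 10 stands beside 27.8% of all genes passing in wildtype arteries (13.2% higher, 14.6% lower) and 18.3% in Has3-deficient arteries (10.2% higher, 8.08% lower). The 10 genes had a median change of -0.04 (wildtype) and 0.21 (Has3-deficient), against 0.01 and -0.03 over all genes, since rises and falls offset each other. For each of the 6 genes the ligated and non-ligated arrays did not overlap in either genotype. Among all genes, no overlap was seen for 14.0% (higher) and 16.0% (lower) in wildtype and for 13.0% and 13.4% in Has3-deficient arteries. In whole arteries a change in the number of cells of a type and a change in RNA per cell cannot be told apart.

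**Figure D1:**
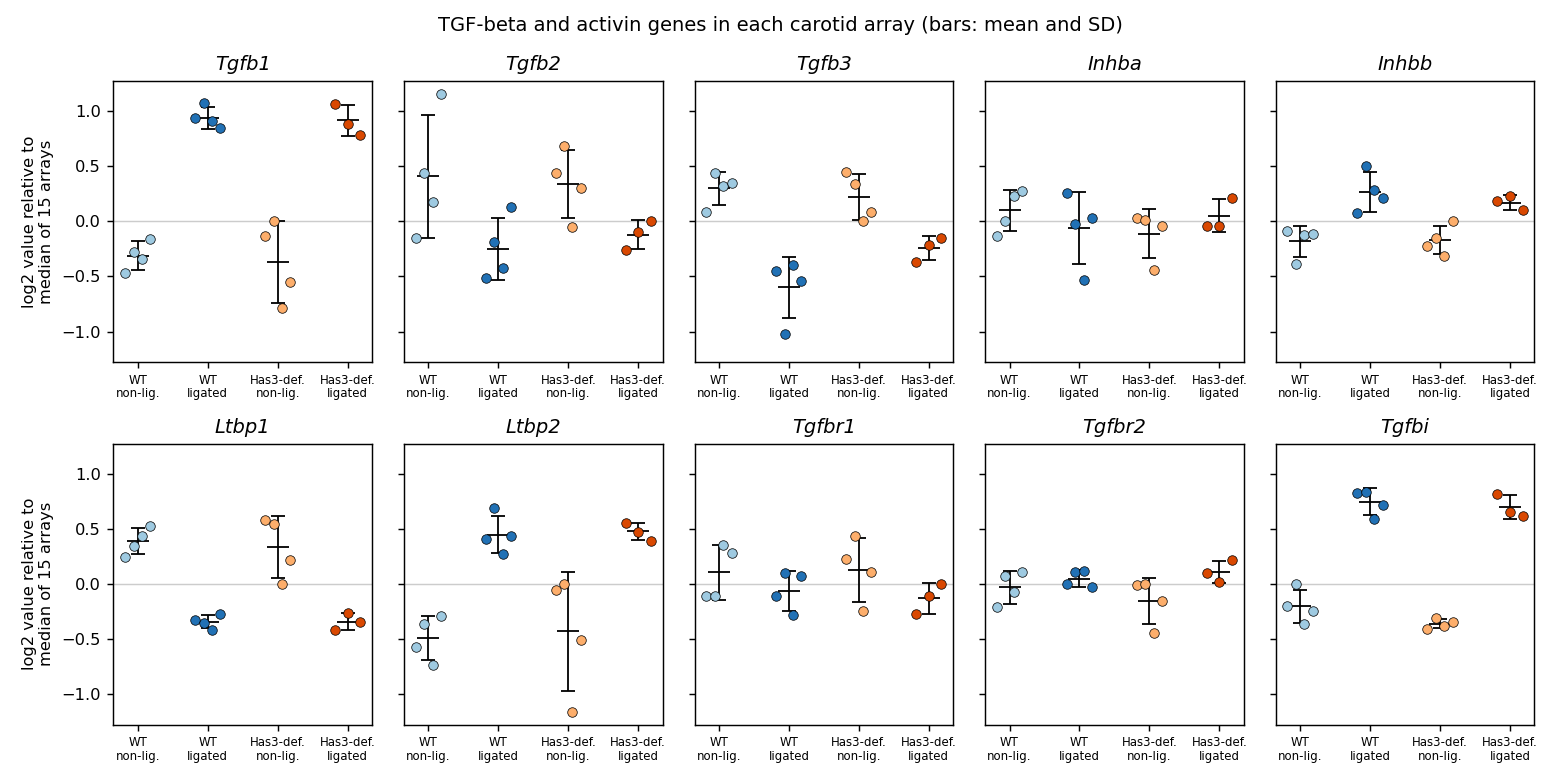
Log2 values, relative to each probe set's median over the 15 arrays, of the 10 genes in every array, with 1 point per array and bars for the group mean and SD; wildtype (WT) groups are blue, Has3-deficient groups orange, with the darker shade for ligated arteries. The ligated arrays lie apart from the non-ligated ones for Tgfb1, Tgfb3, Inhbb, Ltbp1, Ltbp2 and Tgfbi in both genotypes.

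Tgfb1, the main TGF-beta ligand of platelets, macrophages and other leukocytes, had the largest rise among the 10 genes. Its values were -0.47, -0.28, -0.34 and -0.16 in the wildtype non-ligated arrays and 0.94, 1.08, 0.91 and 0.85 in the wildtype ligated arrays. In Has3-deficient arteries they were -0.13, 0.00, -0.79 and -0.55 without and 1.07, 0.89 and 0.79 with ligation. The lowest ligated array lay 1.0 log2 unit above the highest non-ligated array in wildtype and 0.79 above it in Has3-deficient mice. The rise was 1.25 ± 0.14 (SE), or 2.39-fold, in wildtype (adjusted p = 1.33e-05) and 1.28 ± 0.15, or 2.44-fold, in Has3-deficient arteries (adjusted p = 3.6e-05). The call held under all 23 alternative settings in wildtype. It also held in Has3-deficient arteries, leaving aside the fit with 1 non-ligated array, where the value was 0.92.

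Tgfb3, the isoform known for its role in palate fusion, fell where Tgfb1 rose. It stood at 0.09, 0.44, 0.32 and 0.35 in wildtype non-ligated arrays and at -0.45, -1.02, -0.40 and -0.54 after ligation. In Has3-deficient arteries it stood at 0.45, 0.34, 0.00 and 0.09 without and at -0.37, -0.21 and -0.15 with ligation. The groups did not overlap, but the gap was 0.49 in wildtype and 0.15 in Has3-deficient mice. The change was -0.90 ± 0.13 (SE), 1.87-fold lower, in wildtype (adjusted p = 0.000155) and -0.46 ± 0.15, 1.38-fold lower, in Has3-deficient arteries (adjusted p = 0.0407). The Has3-deficient call was lost when any 1 of 8 arrays was left out: Has3-deficient ligated replicate 3 (-0.40), 5 (-0.48) or 6 (-0.51), Has3-deficient non-ligated replicate 1 (-0.39) or 2 (-0.42), wildtype ligated replicate 4, or wildtype non-ligated replicate 3 or 4 (-0.46 each). Without the 5 arrays high in fat or neuron markers, which left 1 non-ligated Has3-deficient array, the Has3-deficient value was -0.59. Over all alternatives its adjusted p ranged from 0.0112 to 0.158.

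Tgfb2, the isoform of development and of the smooth muscle and endothelial lineages, was lower on average after ligation without passing. Wildtype non-ligated arrays gave -0.15, 0.44, 0.18 and 1.16 and ligated arrays -0.51, -0.19, -0.42 and 0.13. Has3-deficient arrays gave 0.44, 0.69, -0.05 and 0.30 without and -0.26, -0.10 and 0.00 with ligation. The groups overlapped in both genotypes, and the spread of the wildtype non-ligated arrays (SD 0.56, n = 4) was the widest of any group for any of the 10 genes. The change was -0.66 ± 0.24 (SE; adjusted p = 0.054) in wildtype and -0.47 ± 0.26 (adjusted p = 0.255) in Has3-deficient arteries. In wildtype it passed without wildtype non-ligated replicate 1 (-0.84, adjusted p = 0.0142), without wildtype ligated replicate 4 (-0.78, adjusted p = 0.0346) and without Has3-deficient non-ligated replicate 3 (-0.66, adjusted p = 0.0423). It also passed without the 5 arrays high in fat or neuron markers (-0.92, adjusted p = 0.0232).

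The isoforms were also set against each other within each array. The difference of the centred values of Tgfb1 and Tgfb3 was -0.61 ± 0.10 (SD, n = 4) in wildtype non-ligated and 1.55 ± 0.37 (SD, n = 4) in wildtype ligated arteries. In Has3-deficient arteries it was -0.59 ± 0.19 (SD, n = 4) and 1.16 ± 0.25 (SD, n = 3). Every non-ligated array lay below 0, at -0.34 or less, and every ligated array at 0.94 or more. Since Tgfb1 and Tgfb3 each lay apart in opposite directions, this separation follows from their values and adds no evidence. The difference of Tgfb1 and Tgfb2 separated the arrays in the same way, from -1.32 to -0.32 in non-ligated and from 0.72 to 1.45 in ligated arteries. Because the values are centred, these differences show an unequal change and not which isoform was more abundant.

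**Figure D2:**
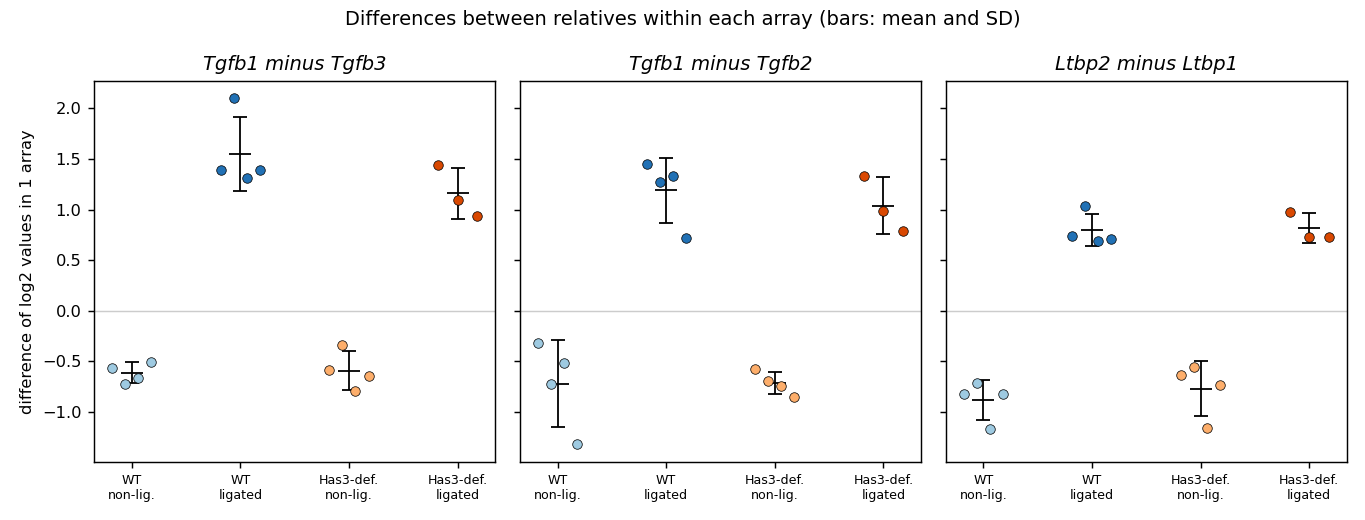
Difference of the centred log2 values of 2 related genes in the same array, for Tgfb1 minus Tgfb3, Tgfb1 minus Tgfb2 and Ltbp2 minus Ltbp1, with 1 point per array and bars for the group mean and SD. In each panel all 8 non-ligated arrays lie below 0 and all 7 ligated arrays above it. For Tgfb1 with Tgfb3 and for Ltbp2 with Ltbp1 this follows from their opposite changes.

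Of the activin subunits, Inhbb passed and Inhba did not, and the difference between their changes was not tested. Inhbb, which encodes the subunit of activin B, stood at -0.09, -0.39, -0.12 and -0.11 in wildtype non-ligated arrays and at 0.08, 0.50, 0.29 and 0.21 in wildtype ligated arrays. Has3-deficient arrays gave -0.22, -0.15, -0.31 and 0.00 without and 0.19, 0.23 and 0.10 with ligation. The ligated arrays were the higher ones in both genotypes, by a gap of 0.17 in wildtype and 0.10 in Has3-deficient mice. The rise was 0.45 ± 0.10 (SE), 1.36-fold, in wildtype (adjusted p = 0.00275) and 0.34 ± 0.10, 1.27-fold, in Has3-deficient arteries (adjusted p = 0.0325). The Has3-deficient call was lost without any 1 of the ligated replicates 3 (0.34), 5 (0.32) and 6 (0.38) or the non-ligated replicates 1 (0.33), 2 (0.35) and 3 (0.30). Without the 5 arrays high in fat or neuron markers, which left 1 non-ligated Has3-deficient array, the Has3-deficient value was 0.32.

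Inhba, the subunit of activin A, a cytokine released by activated macrophages and wounded tissue, showed no call. Its values ran from -0.13 to 0.28 in wildtype non-ligated, from -0.53 to 0.26 in wildtype ligated, from -0.44 to 0.03 in Has3-deficient non-ligated and from -0.04 to 0.21 in Has3-deficient ligated arteries. The 4 ranges overlapped. The change with ligation was -0.16 (95% interval -0.50 to 0.18) in wildtype and 0.15 (-0.21 to 0.52) in Has3-deficient arteries, so a rise larger than these upper bounds lies outside the intervals. Inhba and Inhbb were the 2 members whose values carried the fine number steps of the lower part of the range before centring, as did 77.3% of probe sets with 1 symbol.

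The latent TGF-beta binding proteins Ltbp1 and Ltbp2 moved in opposite directions. Ltbp1, which binds the latent complex covalently and anchors it to fibronectin and fibrillin, stood at 0.25, 0.35, 0.44 and 0.53 in wildtype non-ligated and at -0.33, -0.35, -0.42 and -0.27 in wildtype ligated arrays. In Has3-deficient arteries it stood at 0.58, 0.55, 0.00 and 0.22 without and at -0.42, -0.26 and -0.34 with ligation. All ligated arrays were below all non-ligated ones. The fall was -0.74 ± 0.11 (SE), 1.67-fold, in wildtype (adjusted p = 0.000149) and -0.68 ± 0.12, 1.6-fold, in Has3-deficient arteries (adjusted p = 0.00103). It passed under all 23 alternatives in wildtype. In Has3-deficient arteries it also passed, leaving aside the fit with 1 non-ligated array, where the value was -0.89.

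Ltbp2, which does not bind latent TGF-beta and is a component of elastic fibre microfibrils, gave -0.57, -0.36, -0.73 and -0.29 in wildtype non-ligated and 0.41, 0.69, 0.27 and 0.44 in wildtype ligated arrays. Has3-deficient arteries gave -0.05, 0.00, -1.16 and -0.51 without and 0.56, 0.47 and 0.39 with ligation. The ligated arrays were the higher ones throughout, and the Has3-deficient non-ligated arrays were scattered (SD 0.54, n = 4). The rise was 0.94 ± 0.20 (SE), 1.92-fold, in wildtype (adjusted p = 0.00276) and 0.91 ± 0.22, 1.87-fold, in Has3-deficient arteries (adjusted p = 0.0097). The Has3-deficient value dropped to 0.48 without the 5 arrays high in fat or neuron markers, which left 1 non-ligated Has3-deficient array that is assumed to vary like the other groups. Ltbp2 minus Ltbp1 within an array ran from -1.17 to -0.55 in non-ligated and from 0.69 to 1.04 in ligated arteries. This separation follows from their opposite changes.

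The receptors stayed without a call. Tgfbr1, the kinase that phosphorylates Smad2 and Smad3, ranged from -0.11 to 0.36 in wildtype non-ligated and from -0.28 to 0.10 in wildtype ligated arrays, and from -0.24 to 0.44 and from -0.27 to 0.00 in Has3-deficient arrays. Its change was -0.16 ± 0.15 (SE; adjusted p = 0.496) in wildtype and -0.26 ± 0.16 (adjusted p = 0.316) in Has3-deficient arteries. Without the 5 arrays high in fat or neuron markers it passed in wildtype, at -0.38 (adjusted p = 0.0384). The Has3-deficient value was then -0.57, set against 1 non-ligated array, replicate 2, which at 0.44 was the highest of its group.

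Tgfbr2, the receptor that binds the ligand first, ranged from -0.21 to 0.11 and from -0.03 to 0.12 in wildtype non-ligated and ligated arrays. In Has3-deficient arteries it ran from -0.44 to 0.00 without and from 0.02 to 0.22 with ligation, which did not overlap. Its change was 0.07 (95% interval -0.14 to 0.29; adjusted p = 0.668) in wildtype and 0.26 (0.04 to 0.49; adjusted p = 0.109) in Has3-deficient arteries. The intervals exclude a wildtype change beyond 0.29 in either direction, while the Has3-deficient interval does not cover 0 before adjustment.

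Tgfbi, a secreted matrix protein that binds integrins and collagens and is made by macrophages and fibroblasts, was the member with the smallest adjusted p. It stood at -0.20, 0.00, -0.36 and -0.24 in wildtype non-ligated and at 0.83, 0.84, 0.59 and 0.72 in wildtype ligated arrays. Has3-deficient arrays gave -0.41, -0.31, -0.38 and -0.34 without and 0.82, 0.66 and 0.62 with ligation. The gap between ligated and non-ligated arrays was 0.59 in wildtype and 0.93 in Has3-deficient mice. The rise was 0.95 ± 0.08 (SE), 1.93-fold, in wildtype (adjusted p = 7.55e-07) and 1.06 ± 0.08, 2.09-fold, in Has3-deficient arteries (adjusted p = 6.79e-07). It passed under all 23 alternatives in wildtype. In Has3-deficient arteries it also passed, leaving aside the fit with 1 non-ligated array, where the value was 1.01.

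**Figure D3:**
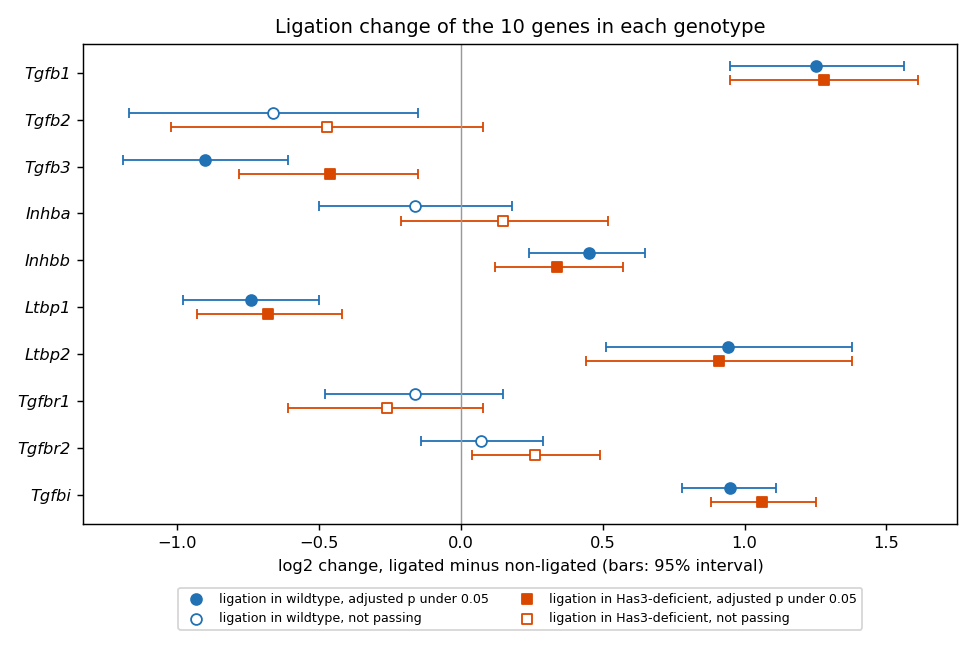
Change of each of the 10 genes with ligation, as ligated minus non-ligated on the log2 scale with its 95% interval, in wildtype (blue circles) and Has3-deficient arteries (orange squares); filled symbols passed at an adjusted p under 0.05 and open symbols did not. Tgfb1, Inhbb, Ltbp2 and Tgfbi lie to the right of 0 and Tgfb3 and Ltbp1 to the left in both genotypes.

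Markers of several cell types moved with these genes. Their counts stand beside 13.2% of all genes higher and 14.6% lower in wildtype, and 10.2% and 8.08% in Has3-deficient arteries. Of the macrophage markers 11 of 13 rose in each genotype, and their mean ranged from -1.02 to -0.11 over the non-ligated and from 1.76 to 2.08 over the ligated arrays. All 9 measured markers of dividing cells rose in both genotypes. Of the neutrophil markers 8 of 10 rose in each genotype, and 1 fell in Has3-deficient arteries. Contractile smooth muscle markers fell in 10 of 11 cases in wildtype and 11 of 11 in Has3-deficient arteries, their mean ranging from -0.03 to 0.53 in non-ligated and from -0.95 to -0.37 in ligated arrays. Of the 9 adventitial fibroblast markers 6 fell and 1 rose in wildtype, and 4 fell and 2 rose in Has3-deficient arteries. Of the 10 endothelial markers 4 rose and 3 fell in each genotype. Of the 7 platelet markers 2 rose and 1 fell in wildtype and 1 rose in Has3-deficient arteries, and of the 10 T and NK cell markers 6 and 4 rose. No neuron marker passed in either genotype, 1 of 8 skeletal muscle markers fell in each, 3 of 8 fat markers fell in wildtype and 0 in Has3-deficient arteries, and 1 of 4 Schwann cell markers fell in Has3-deficient arteries. The part of these cell types in the changes of the 10 genes was not tested.

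The genes whose centred values lay nearest to Tgfb1 over the 15 arrays were Nfkbiz, an inducible regulator of NF-kappaB (root mean square difference 0.16 log2 units), Ctsz, a lysosomal cathepsin (0.17), and Fnip2 (0.17). Nearest to Tgfbi were Mfsd1, a lysosomal transporter (0.10), Ifnar1, an interferon receptor chain (0.12), and Necap2, an endocytic adaptor (0.12). Having been picked for closeness over the same 15 arrays, these neighbours could only show a similar rise with ligation. It was 1.08 to 1.25 around Tgfb1 and 0.85 to 1.06 around Tgfbi.

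Around the 10 genes, 96 of 101 other listed pathway genes were measured. The other 5 were not analysed here. The lists, like the 10 genes, were chosen with earlier results of these data known, so their counts beside all genes are descriptive only. With ligation 30 of the 96 rose and 18 fell in wildtype, and 26 rose and 14 fell in Has3-deficient arteries. Their median change was -0.05 and 0.01. Of all genes 13.2% rose and 14.6% fell in wildtype, and 10.2% rose and 8.08% fell in Has3-deficient arteries. The pathway count of falls in Has3-deficient arteries ran from 7 to 21 when single arrays were left out. It was 7 without Has3-deficient ligated replicate 3. It was 8 without ligated replicate 5, non-ligated replicate 1 or non-ligated replicate 2.

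**Figure D4:**
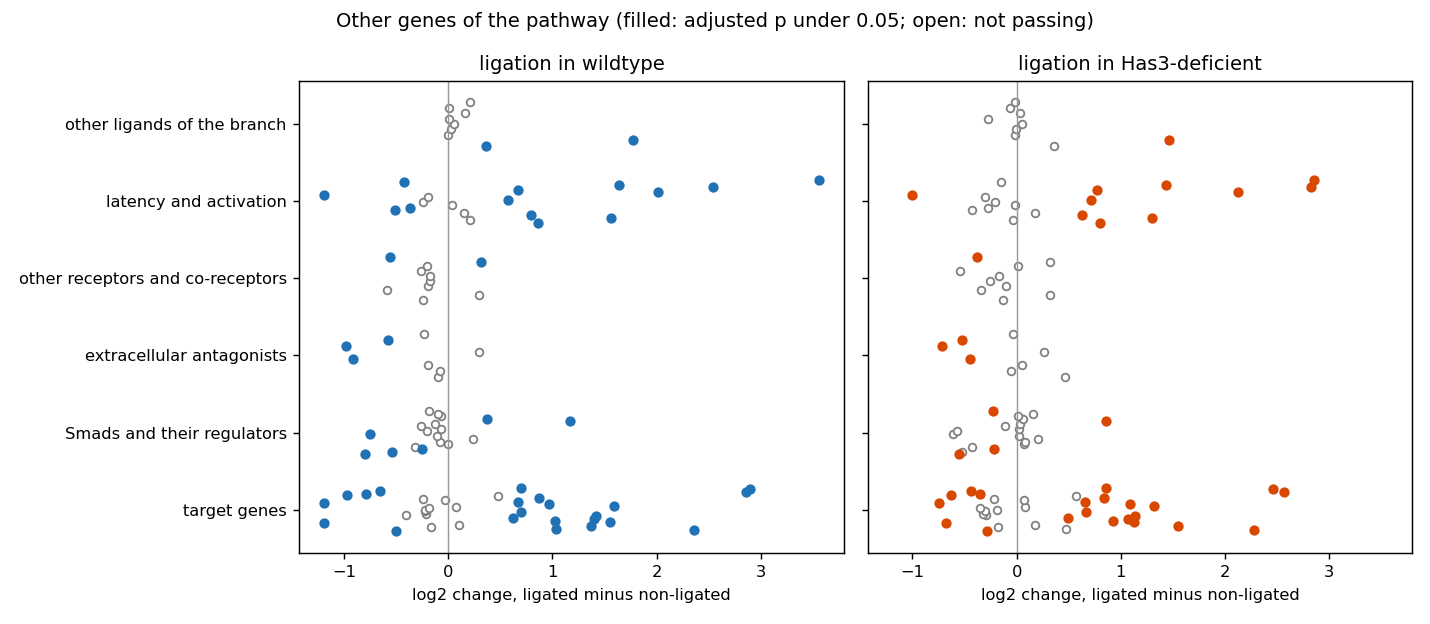
Change with ligation of the 96 other pathway genes in wildtype (left, blue) and Has3-deficient arteries (right, orange) on the log2 scale, with 1 point per gene in 6 lists; filled points passed at an adjusted p under 0.05 and open grey points did not. Target genes and genes of latency and activation hold the largest rises, and extracellular antagonists hold no gene that rose. In wildtype 1 antagonist did so without the 5 arrays high in fat or neuron markers, and 1 with the replicate block.

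Genes of latency and activation, which store the ligand or set it free, held the largest single change in each genotype, that of Thbs1. Of 18 measured, 9 rose and 4 fell in wildtype, and 9 rose and 1 fell in Has3-deficient arteries, with a median change of 0.39 and 0.41. Of all genes 13.2% rose and 14.6% fell in wildtype, and 10.2% rose and 8.08% fell in Has3-deficient arteries. Thbs1, a thrombospondin that activates latent TGF-beta, rose by 3.56 ± 0.22 (SE), 11.8-fold, in wildtype and by 2.85 ± 0.23, 7.19-fold, in Has3-deficient arteries. The proteases Mmp9 and Mmp14 rose by 2.54 ± 0.25 and 2.01 ± 0.13 in wildtype and by 2.82 ± 0.27 and 2.12 ± 0.14 in Has3-deficient arteries. Nrros, which anchors latent TGF-beta on macrophages and microglia, rose by 1.64 ± 0.15 and 1.43 ± 0.16. The remaining genes of this list named here were chosen after their values were seen. Fbn2, a fibrillin, rose by 1.56 and 1.30, and Furin, which cleaves the propeptide, by 0.80 and 0.63. Ltbp4, which also binds the latent complex, fell with Ltbp1, with changes of -1.19 ± 0.20 in wildtype and -1.0 ± 0.22 in Has3-deficient arteries. In wildtype the integrin subunits Itgb3 (-0.51) and Itgb5 (-0.37) and the propeptide convertase Pcsk5 (-0.42) also fell. In Has3-deficient arteries they stood at -0.43, -0.27 and -0.15 without passing. The call of Itgb5 was lost with quantile normalization (adjusted p = 0.0905) and without any 1 of 10 arrays, namely all 4 wildtype ligated replicates, wildtype non-ligated replicates 2, 3 and 4 and the 3 Has3-deficient ligated replicates, at -0.39 to -0.32. That of Pcsk5 was lost without wildtype ligated replicate 1 (-0.37) or 4 (-0.36) or wildtype non-ligated replicate 1 (-0.43), 2 (-0.35) or 4 (-0.44), and without the 5 arrays high in fat or neuron markers (-0.33). The wildtype count of falls was 2 in place of 4 without wildtype ligated replicate 1 or 4 or wildtype non-ligated replicate 2 or 4. The Has3-deficient count was 4 in place of 1 without Has3-deficient non-ligated replicate 3, and 2 without wildtype non-ligated replicate 2 or 3.

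Among 9 other ligands of the branch, 2 rose in wildtype and 1 in Has3-deficient arteries, beside the 13.2% and 10.2% of all genes that rose, with a median change of 0.06 and -0.01. Gdf3, a ligand made by macrophages and fat, rose by 1.77 ± 0.13 (SE), 3.41-fold, and by 1.46 ± 0.14, 2.74-fold. Gdf11, a ligand close to myostatin, was higher by 0.36 ± 0.12 in wildtype (adjusted p = 0.0403) and by 0.36 ± 0.13 in Has3-deficient arteries (adjusted p = 0.0818). Its wildtype call was lost without wildtype ligated replicate 1 (0.29) or 4 (0.34), wildtype non-ligated replicate 1 or 3 (0.33 each) or 4 (0.39), Has3-deficient ligated replicate 6 or non-ligated replicate 1 (0.36 each), or the 5 arrays high in fat or neuron markers (0.37, adjusted p = 0.0699). Its Has3-deficient value passed without Has3-deficient non-ligated replicate 3 (0.46, adjusted p = 0.0165), with array weights (0.35, adjusted p = 0.0493) and with quantile normalization (0.37, adjusted p = 0.0473). Without the 5 arrays, which left 1 non-ligated Has3-deficient array, that value was 0.63. Without Has3-deficient non-ligated replicate 3, 1 gene of the list also fell in Has3-deficient arteries, Lefty1, named after its value was seen.

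Among 10 other receptors and co-receptors, 1 rose and 1 fell in wildtype and 1 fell in Has3-deficient arteries, with a median change of -0.20 and -0.15. Of all genes 27.8% passed in wildtype and 18.3% in Has3-deficient arteries. Tgfbr3, the betaglycan co-receptor that presents Tgfb2, fell by 0.56 ± 0.11 (SE) in wildtype and by 0.38 ± 0.12 in Has3-deficient arteries (adjusted p = 0.0379). The latter call was lost without Has3-deficient ligated replicate 5 (-0.33) or 6 (-0.37) or non-ligated replicate 1 or 2 (-0.33 each), and with only the groups compared (adjusted p = 0.0969). Eng, the endothelial co-receptor endoglin, was higher by 0.32 ± 0.11 in wildtype (adjusted p = 0.046) and by 0.32 ± 0.12 in Has3-deficient arteries (adjusted p = 0.0859). Its wildtype call was lost without any 1 of the wildtype ligated replicates 1, 2, 3 and 4, the wildtype non-ligated replicates 1, 2 and 4, the Has3-deficient ligated replicates 5 and 6 and the Has3-deficient non-ligated replicate 2, at 0.26 to 0.35. It was lost as well with array weights (0.29, adjusted p = 0.0511) and without the 5 arrays high in fat or neuron markers (0.20, adjusted p = 0.148). Without Has3-deficient non-ligated replicate 1 the Has3-deficient value passed (0.43, adjusted p = 0.0105). The wildtype count of falls was 2 without wildtype ligated replicate 1 and 3 without wildtype non-ligated replicate 1, and the Has3-deficient count was 2 without ligated replicate 3.

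Of the 8 extracellular antagonists, 3 fell and none rose in limma's fit in each genotype, with a median change of -0.21 and -0.04. Of all genes 14.6% fell in wildtype and 8.08% in Has3-deficient arteries. At an unadjusted p under 0.05, 4 of the 8 differed in each genotype, beside 7 of the 10 members and 36.2% of all genes in wildtype and 29.2% in Has3-deficient arteries. Fstl3, a follistatin-like protein that traps activin, fell by 0.98 ± 0.14 (SE), 1.98-fold, in wildtype and by 0.72 ± 0.15, 1.65-fold, in Has3-deficient arteries. Fmod, a small proteoglycan that binds TGF-beta, fell by 0.91 ± 0.11 and 0.45 ± 0.12, and Htra1, a serine protease of the matrix, by 0.58 ± 0.14 and 0.52 ± 0.16. In Has3-deficient arteries the call of Fmod was lost without ligated replicate 3 (-0.37), and that of Htra1 without ligated replicate 3 (-0.53), 5 (-0.51) or 6 (-0.52) or non-ligated replicate 1 (-0.43) or 2 (-0.40). With only the groups compared both calls were lost (adjusted p = 0.0529 and 0.12), and with quantile normalization the wildtype call of Htra1 was lost (adjusted p = 0.0587). Without Has3-deficient ligated replicate 3 the Has3-deficient count of falls was 1, as it was with only the groups compared. In wildtype 1 antagonist rose without the 5 arrays high in fat or neuron markers, and 1 rose with the replicate block. The Has3-deficient fit without the 5 arrays kept 1 non-ligated array and is not counted. In each wildtype case it was Fst, the activin trap follistatin, named after its values were seen. With all arrays Fst stood at 0.30 in wildtype (adjusted p = 0.215) and 0.26 in Has3-deficient arteries (adjusted p = 0.372).

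Of 18 Smads and their regulators, 2 rose and 4 fell in wildtype and 1 rose and 3 fell in Has3-deficient arteries, beside the 27.8% and 18.3% of all genes that passed, with a median change of -0.12 and 0.01. Smad2, Smad3 and Smad4, which carry the signal to the nucleus, and Smad7, which the pathway induces as its own brake, did not pass in either genotype. Tgif1, a repressor that binds Smads, rose by 1.17 ± 0.14 (SE) and 0.86 ± 0.15. Without the 5 arrays high in fat or neuron markers, which left 1 non-ligated Has3-deficient array, its Has3-deficient value was 0.47. Ldlrad4, which keeps Smads from the receptor, fell by 0.80 ± 0.10 and 0.55 ± 0.11. Smad6, the inhibitory Smad of the BMP branch, fell in wildtype by 0.75 ± 0.22 (adjusted p = 0.0176) and stood at -0.61 ± 0.23 in Has3-deficient arteries (adjusted p = 0.092). Pmepa1, another membrane inhibitor, fell in wildtype by 0.54 ± 0.18 (adjusted p = 0.0369) and stood at -0.52 ± 0.19 in Has3-deficient arteries (adjusted p = 0.0807). The wildtype call of Smad6 was lost without wildtype ligated replicate 1 (-0.68) or non-ligated replicate 3 (-0.63), and that of Pmepa1 without wildtype ligated replicate 1 (-0.56) or 3 (-0.40) or non-ligated replicate 3 (-0.48) or 4 (-0.46). With quantile normalization both wildtype calls were lost (adjusted p = 0.152 for Smad6 and 0.129 for Pmepa1), as was that of Pmepa1 with the replicate block (adjusted p = 0.0533). In Has3-deficient arteries both passed with array weights (-0.77 and -0.64). Both also passed there without Has3-deficient non-ligated replicate 3 (-0.76 for Smad6 and -0.62 for Pmepa1) or 4 (-0.76 and -0.64). Without the 5 arrays high in fat or neuron markers, which left 1 non-ligated Has3-deficient array, they stood at -0.91 and -0.90. The count of falls in wildtype ran from 2 to 6 when single arrays were left out. It was 2 without wildtype ligated replicate 1 or non-ligated replicate 3, and 6 without the 5 arrays high in fat or neuron markers. In Has3-deficient arteries the count was 7 with array weights and 5 without Has3-deficient non-ligated replicate 3 or 4. It was 1 without Has3-deficient ligated replicate 3 or 5 or non-ligated replicate 1 or 2. It was also 1 without wildtype ligated replicate 2, 3 or 4 or wildtype non-ligated replicate 3.

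Known target genes of the pathway split into a rising and a falling set. Of 33 measured, 16 rose and 6 fell in wildtype and 15 rose and 6 fell in Has3-deficient arteries, with a median change of 0.48 and 0.47. Of all genes 13.2% rose and 14.6% fell in wildtype, and 10.2% rose and 8.08% fell in Has3-deficient arteries. Tnc, a matrix glycoprotein of injured tissue, rose by 2.90 ± 0.15 (SE), 7.48-fold, and by 2.46 ± 0.16, 5.51-fold. Timp1, an inhibitor of metalloproteinases, rose by 2.86 ± 0.14 and 2.57 ± 0.16. Adam12, a metalloproteinase of activated mesenchymal cells, rose by 2.36 ± 0.25 and 2.28 ± 0.27, and Junb, an AP-1 subunit, by 1.59 ± 0.16 and 1.32 ± 0.17. The 6 genes that fell, named after their values were seen, were Cnn1 (-1.19 in wildtype and -0.68 in Has3-deficient arteries), Nox4 (-1.19 and -0.74), Tagln (-0.97 and -0.63), Tgfb1i1 (-0.79 and -0.35), Timp3 (-0.65 and -0.44) and Acta2 (-0.50 and -0.28). Acta2, Tagln and Cnn1 encode contractile proteins of smooth muscle and stand in the contractile marker list as well. Ccn2, a matricellular target, did not pass, at -0.16 ± 0.18 and -0.18 ± 0.19. Without Has3-deficient ligated replicate 3 the Has3-deficient count of falls was 2, the calls of Acta2 (-0.23), Cnn1 (-0.56), Timp3 (-0.39) and Tgfb1i1 (-0.29) being lost. The call of Timp3 was also lost without Has3-deficient ligated replicate 5 (-0.46) or non-ligated replicate 1 (-0.40) or 2 (-0.39), and that of Tgfb1i1 without the same 3 arrays (-0.36, -0.30 and -0.33), with only the groups compared (adjusted p = 0.0519) and with quantile normalization (adjusted p = 0.06). Without the 5 arrays high in fat or neuron markers, which left 1 non-ligated Has3-deficient array, the Has3-deficient values were -0.21 for Acta2 and -0.70 for Cnn1.

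Has3 deficiency was then compared within each surgical state. None of the 10 genes passed in ligated arteries by limma, where 0.0% of all genes (0 of 22180) passed and 910 genes, 4.1%, had an unadjusted p under 0.05. Tgfb3 was the 1 member with an unadjusted p under 0.05. Its 3 Has3-deficient ligated arrays, at -0.37, -0.21 and -0.15, lay above the 4 wildtype ligated arrays, whose highest value was -0.40. The gap was 0.03 and the difference 0.36 ± 0.15 (SE; adjusted p = 1.0). Arrays lay apart in this direction for 3.55% of all genes and in the other for 3.35%. For the other members Has3-deficient minus wildtype lay between -0.09 and 0.13, with Tgfb1 at -0.03 (95% interval -0.36 to 0.30), Ltbp1 at 0.00 (-0.25 to 0.26), Ltbp2 at 0.02 (-0.45 to 0.50) and Tgfbi at -0.04 (-0.23 to 0.14).

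In non-ligated arteries none of the 10 genes passed, beside 0.0857% of all genes (19 of 22180; 0.00902% higher and 0.0766% lower in Has3-deficient arteries). By limma's unadjusted p under 0.05, 0 of the 10 and 13.4% of all genes differed. The arrays of the genotypes overlapped for each of the 10, while they lay apart for 2.4% (higher) and 3.82% (lower) of all genes. The lowest adjusted p of the 10 was that of Tgfbi, 0.392, with -0.16 ± 0.08 (SE). Its 4 Has3-deficient arrays, from -0.41 to -0.31, lay within or below the wildtype range of -0.36 to 0.00. Tgfb1 differed by -0.06 (95% interval -0.36 to 0.25) and Tgfb3 by -0.08 (-0.37 to 0.21).

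The change with ligation was also compared between genotypes by an interaction term. It passed for none of the 10 genes and for 0.0% of all genes (0 of 22180), while 1802 genes, 8.12%, had an unadjusted p under 0.05. Tgfb3 was the 1 member below that level, its change being less negative by 0.44 ± 0.20 (SE) in Has3-deficient than in wildtype arteries (adjusted p = 0.61). For Tgfb1 the interaction was 0.03 (95% interval -0.42 to 0.48), for Ltbp1 0.06 (-0.29 to 0.41), for Ltbp2 -0.04 (-0.68 to 0.61), for Inhbb -0.10 (-0.40 to 0.20) and for Tgfbi 0.12 (-0.13 to 0.37). These intervals bound the differences and do not show that the genotypes responded alike.

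No other pathway gene passed in these 3 comparisons by limma. An unadjusted p under 0.05 was held by 8 of the 96 in ligated arteries (4.1% of all genes), 9 in non-ligated arteries (13.4%) and 7 for the interaction (8.12%). The lowest p in ligated arteries was that of Tgfb1i1, a focal adhesion adaptor induced by TGF-beta in smooth muscle, which was higher in Has3-deficient arteries by 0.34 ± 0.10 (SE; adjusted p = 1.0). The same gene had the lowest p for the interaction (0.44 ± 0.14, adjusted p = 0.503). In non-ligated arteries it was Col1a1, the fibrillar collagen chain, higher by 0.42 ± 0.10 (adjusted p = 0.0978). Several marker lists held low unadjusted p-values in the same comparisons, to be read beside those shares of all genes. Of the contractile smooth muscle markers 8 of 11 had an unadjusted p under 0.05 between genotypes in ligated arteries, with a median difference of 0.38, and 4 of 11 had one for the interaction, with a median of 0.42. Of the adventitial fibroblast markers 5 of 9 had an unadjusted p under 0.05 for the interaction, with a median of 0.29, and 6 of 9 between genotypes in non-ligated arteries, with a median difference of -0.27. No marker of these lists passed after limma's adjustment in these 3 comparisons. Their part in the Tgfb3, Tgfb1i1 and Col1a1 values was not tested.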

How the data were processed

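The deposited table holds 33793 probe sets on 15 arrays as log2 values, with each probe set centred so that its median over the arrays is 0. Base 2 was inferred from the size of the values. How arrays were normalized, with which software and against which genome build was not given in the sources used here. Scanner files were not used here, so detection above background is unknown and the number of arrays limits the precision. Genes were named for the 23521 probe sets with 1 symbol (1814 had several and 8458 were unlisted), and probe sets of a gene were averaged, giving 22180 genes.

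A linear model over the 4 groups (limma 3.58.1, R 4.3.3), tested on simulated data, gave ligation in each genotype, genotype in each surgical state and their interaction, with Benjamini-Hochberg adjustment over all genes and a threshold of 0.05. Replicate numbers were not used to pair the samples, since the labels do not say what they mark. The members and lists were chosen with earlier results of these data known. Named genes were the 10 members, per pathway list the up to 4 passing genes with the largest wildtype change, the pathway gene with the lowest p in each other comparison, the 3 genes nearest to each member that changed by over 1 log2 unit, and Has3. Promoters came from RefSeq (GRCm38.p6). Alternatives were array weights, quantile normalization, fits of only the groups compared, another probe set rule, a replicate block, and leaving out arrays. Predicted, microRNA and receptor-segment genes were left out of the nearest genes.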

Additional observations from a re-analysis of the deposited data

Results flagged for a closer look

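A pair of arrays stood far from the others of their group for an activin subunit. Inhba was lowest in Has3-deficient non-ligated replicate 3, at -0.44, while the other 3 arrays ran from -0.04 to 0.03. Inhbb was lowest in wildtype non-ligated replicate 2, at -0.39, while the other 3 ran from -0.12 to -0.09. In all, 30 sets of 4 arrays were examined this way, and chance flags about 1 in 20.

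For Inhba the genotype difference had opposite signs by surgical state, and neither value passed. Has3-deficient minus wildtype was 0.11 (95% interval -0.25 to 0.47) in ligated and -0.20 (-0.54 to 0.13) in non-ligated arteries, and the interaction of 0.32 did not pass (adjusted p = 0.754 by limma). These arrays' values are given without an explanation.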

How the results depend on the processing

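Of 1120 values of the 10 genes under the alternatives, 1093 kept their side of the threshold, 45 of them with a change of sign that passed in neither setting, 19 lost and 8 gained a call, and none that passed reversed. The alternatives overlap, and the 1120 values include the fit that kept 1 non-ligated Has3-deficient array. Each member has 1 probe set, so another probe set rule left its values unchanged. Arrays of the other genotype enter a ligation comparison only through the spread and the adjustment. Leaving out the array highest in neuron markers repeats leaving out Has3-deficient non-ligated replicate 3. The wildtype calls of Tgfb1, Tgfb3, Inhbb, Ltbp1, Ltbp2 and Tgfbi held under all 23 alternatives. So did the Has3-deficient calls of Tgfb1, Ltbp1 and Tgfbi, leaving aside the fit with 1 non-ligated array. Without the 5 arrays high in fat or neuron markers, 4 members in place of 2 fell in wildtype. The Has3-deficient side then kept 1 non-ligated array, so no count is given for it. Leaving out single arrays gave 2 to 3 falls in wildtype, and 1 to 2 falls and 3 to 4 rises in Has3-deficient arteries. With only the groups compared, Ltbp2 lost its Has3-deficient call (0.91, adjusted p = 0.0695). Tgfb2 gained a wildtype call with array weights (-0.65, adjusted p = 0.0381) and with the replicate block (-0.66, adjusted p = 0.00699). The labels do not say whether a number marks a mouse, so the numbers were not taken as pairs. Same-numbered wildtype samples correlated at 0.03 to 0.16 in their deviations, which does not settle whether they were pairs. With the block, 4 members rose, 3 fell and 6098 genes passed in wildtype. No paired analysis was possible for ligation in Has3-deficient mice or genotype in ligated arteries because those groups share 1 number. For genotype in ligated arteries 1 gene passed with array weights and 1 with only the groups compared. In non-ligated arteries the 19 genes became 9 with array weights, 0 with only the groups compared, 7 with the probe set of largest variance, 43 with quantile normalization, 0 with the replicate block, 0 without the array highest in neuron markers, and 0 to 280 when single arrays were left out. No member passed in a genotype comparison or the interaction under any alternative (660 values). The cause of these differences was not tested.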
